A study of Mus musculus with 24 samples.

Results

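The 10 genes described here are chemokines and chemokine receptors, among 20867 genes with at least 1 line in the tables of mouse preleukemic cells. The 5 ligands were Ccl3, Ccl4, Ccl6, Ccl9 and Cxcl2, and the 5 receptors were Cxcr4, Ccr1, Ccr2, Cxcr2 and Cx3cr1. Each was taken as the lines whose transcript accession belongs to that gene. The set was chosen by measured values: the conversion rate of Cxcr4, which stayed high in the cDKO libraries, and the abundance of Ccl3, which changed over the chase. Therefore the genotype values of Cxcr4 and the chase and genotype values in abundance of Ccl3 are given as descriptions, with no test. RNA was measured by SLAM-seq, in which 4-thiouridine (4SU) fed to the cells is read as T-to-C conversions, here in 3′-end libraries counted over 3′UTR intervals of the mm10 genome. Cells were labelled with 4SU for 12 h at 2.9 µM and then moved to medium without it, and RNA was taken 0, 60, 180 and 540 min later. There were 8 groups of 3 libraries, 24 libraries in all: control and Tut4/7 Vav-iCre cDKO cells at each of the 4 times.

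All libraries came from c-Kit-enriched fetal liver cells of day-14.5 embryos in which retroviral Meis1 and Hoxa9 had been introduced, and all were grown with SCF, IL-6 and IL-3. The control cells carried floxed Tut4 and Tut7 alleles without Vav-iCre, whereas in the cDKO cells Vav-iCre, which is active in blood-forming cells, had removed both genes. The study describes 3 biological replicates per genotype, and a replicate number recurs at every time. The labels give each time a batch of its own, so that a change over the chase and a batch cannot be told apart, while each comparison of genotypes at 1 time lies within 1 batch.

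Chemokines are small secreted proteins that bind G-protein-coupled receptors on leukocytes and direct their movement. CXCR4, the receptor of CXCL12, holds blood stem and progenitor cells in their marrow niche, and CCR2, the receptor of CCL2, is needed for monocytes to leave the marrow. CCL3, a ligand of CCR1, and CCL4 are inflammatory ligands, CCL6 and CCL9 are myeloid ligands of rodents, and CXCL2 attracts neutrophils through CXCR2. Many chemokine mRNAs carry AU-rich elements in the 3′UTR, which are known to shorten mRNA life. TUT4 and TUT7 are uridyltransferases that extend short-tailed RNAs at the 3′ end, a step that marks them for decay.

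The 3′UTRs in which conversions were counted differed in AU-rich content. Runs of ATTTA, the core pentamer of AU-rich elements, were counted on the gene strand in GENCODE vM39 transcripts (GRCm39), in which the UTR of each of the 10 genes had the same number of T as the deposited T positions. Ccl3 had 5 copies in 409 bases and Cxcl2 had 11 in 734 bases, 4 of which lay in the longer form TTATTTATT, which overlaps the pentamer. Ccr2 had 8 copies in 2334 bases and Ccl9 had 5 in 2465 bases, while Cxcr4 had 1 copy in 644 bases. In the last 300 bases, close to where the reads start, Ccl3 had 5 copies, Cxcl2 3, Ccl4 2, Ccl6 2 and Ccr2 1, and the other 5 members had 0. Among 16533 UTRs of at least 300 bases, 40.7% held the pentamer in that window, 13.7% held at least 2 and 4.45% at least 3. A match is a description of letters and not a site. The following stretches of 30 bases (5′ to 3′, ATTTA in capitals) show the densest copies in the members that the results turn on, with the UTR bases 182 to 211 for Ccl3, 161 to 190 for Ccl4, 124 to 153 for Cxcl2, 2127 to 2156 for Ccl9, 155 to 184 for Cxcr4 and 2251 to 2280 for Ccr2.
Ccl3: aatactATTTAattttgtaATTTAttttat
Ccl4: attatttctattATTTAtgttttagttata
Cxcl2: ATTTATTTAtctatgtATTTATTTATTTAt
Ccl9: tggatctcATTTActgATTTAtgtatgttg
Cxcr4: aggtttgacttaATTTAtataaatactttt
Ccr2: tgtaaaactatgATTTAgaaaataaaccaa

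Each library held 4380235 to 7041311 reads in 3′UTR intervals (median 5321078), and levels are given as CPM, the count per 1000000 of these reads. Tut4 stood at 76.5 ± 9.2 CPM in control and 22.2 ± 6.9 in cDKO cells at 0 min (SD, n = 3), and Tut7 at 40.0 ± 5.2 and 18.7 ± 1.8, so both remained detectable in cDKO 3′UTR reads. The library-wide conversion rate, the percentage of covered T read as C, was 1.64% ± 0.026 in control and 0.736% ± 0.169 in cDKO cells at 0 min, and 0.314% ± 0.013 and 0.187% ± 0.024 at 540 min. The genotypes thus differed in how much label they held before the chase. Markers of blood cell types differed too, and their part in the results below was not tested. Of 13 neutrophil markers 8 were tested at 0 min and 6 were lower in cDKO cells (13.4% of all genes tested passed in either direction), with a summed level of 8072 to 8437 CPM in control and 1857 to 3074 CPM in cDKO libraries, and Ltf, Camp and Retnlg at 0 in both. The summed level of 10 monocyte markers overlapped, at 4145 to 4558 and 3614 to 4749 CPM. However, 6 of the 10 were tested at 0 min, and 4 were lower and 1 higher in cDKO cells, with a median log2 ratio of -1.11. Among them F13a1 (207 against 0.135 CPM) and Csf1r (29.7 against 1.79 CPM) were far lower and Adgre1 (20.8 against 209 CPM) higher in cDKO cells. Mast cell and basophil markers summed to 21.7 to 28.0 CPM in control and 164 to 322 CPM in cDKO libraries, with Fcer1a and Cma1 at 0 in both. Of these 8 markers 5 were tested at 0 min, and 3 were higher in cDKO cells (Cpa3, Hdc and Gata2). Mcpt8 (log2 -0.29, edgeR adjusted p = 0.48) and Ms4a2 (log2 -0.066, edgeR adjusted p = 0.93) did not pass. The erythroid marker Hbb-bt stood at 0.694 CPM in control and 1642 CPM in cDKO cells (log2 11.06, adjusted p = 2.0e-06). Tfrc, the other of the 2 erythroid markers tested, stood at 294 and 290 CPM (log2 -0.0082, adjusted p = 0.97). The 8 erythroid markers summed to 293 to 298 and 1625 to 2259 CPM, with Car1, Gata1 and Epor among those at 0 in both. Tfrc thus made up nearly all of the control sum, and Hbb-bt most of the cDKO sum. The eosinophil marker Prg3 stood at 0.0626 and 2.05 CPM (log2 4.67, edgeR adjusted p = 0.011), a call lost without control replicate 1 or 3 (0.065 and 0.070). Siglecf, the other of the 2 eosinophil markers tested, did not pass (4.64 and 7.37 CPM, adjusted p = 0.30). In bulk samples fewer cells of a type and less RNA per cell cannot be told apart.

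Cxcr4 (chromosome 1, 128588199 to 128588842, minus strand of mm10) was lower in cDKO cells at every time, by about the same factor. At 0 min its level was 171, 160 and 157 CPM in the control libraries and 136, 119 and 121 CPM in the cDKO libraries. At 540 min the control libraries held 197, 207 and 198 CPM and the cDKO libraries 167, 155 and 142 CPM. The groups did not overlap at either time, nor at 60 min (132 to 158 against 98.7 to 116 CPM) or 180 min (189 to 200 against 139 to 167 CPM). The log2 ratio of cDKO to control was -0.36 (SE 0.098), -0.48 (0.10), -0.34 (0.091) and -0.38 (0.082) at 0, 60, 180 and 540 min. Ordered by mean level, the groups ran from control at 540 and 180 min, through control at 0 min, cDKO at 180 and 540 min and control at 60 min, to cDKO at 0 and 60 min. Neighbours in that order overlapped, except control at 180 against control at 0 min and cDKO at 0 against cDKO at 60 min.

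**Figure D1:**
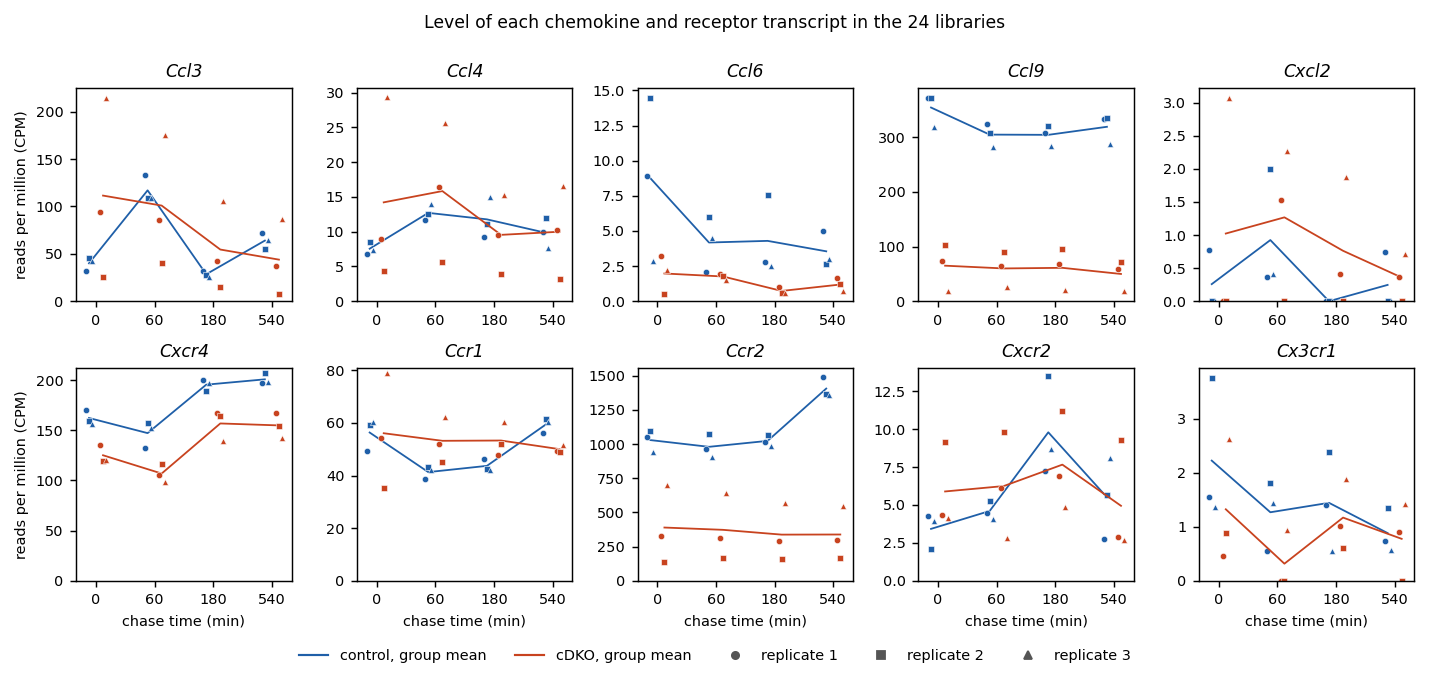
Level of each of the 10 genes in CPM (y axis, a scale of its own in each panel) at the 4 chase times (x axis, drawn at equal spacing), with 1 point per library and lines through the group means. Control libraries of Ccl9 lie between 282 and 372 CPM and cDKO libraries between 18.7 and 102 CPM, whereas for Ccl3 the genotypes overlap at every time.

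The conversion rate of Cxcr4 fell in control cells and stayed high in cDKO cells, the pattern for which it was chosen. In control libraries it was 1.86%, 1.72% and 2.005% at 0 min, and 0.128%, 0.147% and 0.161% at 540 min. In cDKO libraries it was 2.27%, 2.51% and 1.95% at 0 min, and 1.36%, 1.39% and 1.23% at 540 min. Every cDKO library at 540 min was thus above the highest control library of 60 min, which was 0.884%. In between, the group means were 0.816% and 0.372% in control and 1.66% and 1.57% in cDKO cells at 60 and 180 min. Of the 0 min rate, 7.81% was left at 540 min in control and 59.0% in cDKO cells, against 19.2% and 25.4% for the library-wide rate. The coverage behind these values was at least 15525 T in each library, and the counts summed to 2772 conversions in 385320 covered T in control and 4522 in 272025 in cDKO cells.

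Cxcr4 also stood apart from its own libraries. Its rate divided by the library-wide rate was 1.14, 0.549, 0.346 and 0.463 in control cells at the 4 times, so the RNA lost label faster than the library as a whole up to 180 min. In cDKO cells the same ratio was 3.12, 2.46, 3.21 and 7.13. At 0 min the mean rate of Cxcr4 was 1.86% in control and 2.25% in cDKO cells, with overlapping libraries, while the library-wide rate of every cDKO library was below that of every control library. The fall from 0 to 540 min was 1.72 percentage points in control and 0.921 points in cDKO cells, and 61.0% and 63.5% of it had taken place by 60 min.

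**Figure D2:**
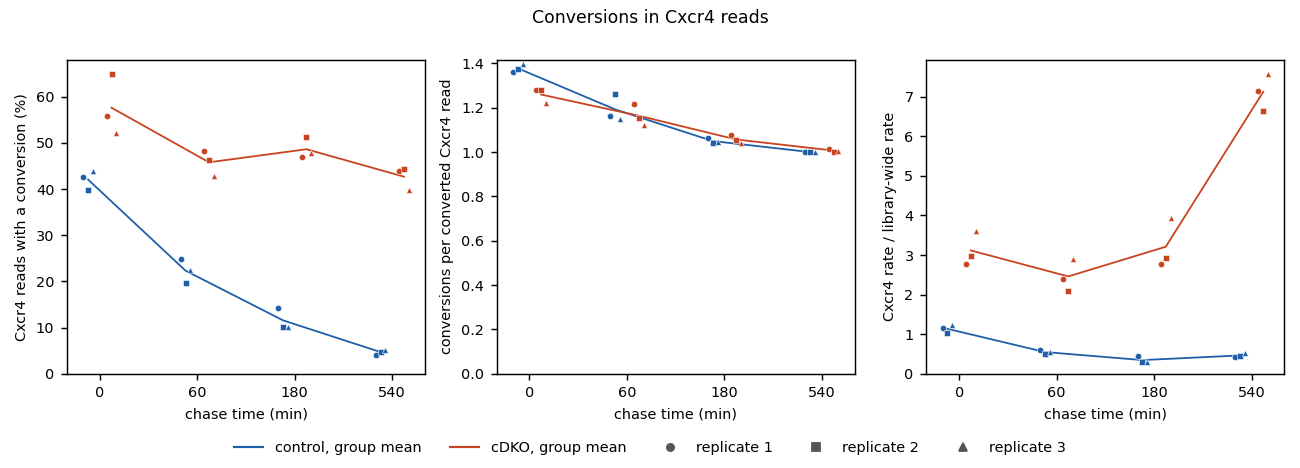
Cxcr4 conversions by chase time (x axis, equal spacing) and genotype, 1 point per library: the percentage of reads with at least 1 conversion, the mean number of conversions per converted read, and the gene's rate divided by the library-wide rate. Converted reads fall from 42.0% to 4.70% in control and from 57.6% to 42.7% in cDKO cells, and the rate ratio reaches a mean of 7.13 in cDKO cells at 540 min.

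The reads themselves carried the same difference. Reads with at least 1 conversion made up 42.0% of Cxcr4 reads at 0 min and 4.70% at 540 min in control cells, and 57.6% and 42.7% in cDKO cells. A converted read carried 1.36 to 1.40 conversions in control libraries at 0 min, when 42.0% of control reads were converted. At 540 min the mean was 1.00 in control cells, with 4.70% of reads converted, and 1.01 in cDKO cells, with 42.7% converted. A base that differs from the reference in the cDKO cells would be counted as a conversion in the same way, and whether Cxcr4 holds 1 was not tested, since the tables give no positions of single conversions. Among 6951 genes with coverage of at least 1000 T in each of the 24 libraries, 25 (0.36%) were over 1% in every cDKO library at 540 min. Of the same genes, 49 were so in every control library at 540 min, and 23 in both. The other 24 of the 25 had means of 1.04% to 3.05% in cDKO and 1.30% to 2.99% in control cells at 540 min. Those of the 25 that were not over 1% in every control library were Cxcr4 and Bcl7c. Cxcr4 was the member over 1% in every cDKO library, and it had been chosen for that.

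A half-life was fitted as an exponential fall over the 4 times. In the fit over all libraries of a genotype, rates were divided by the genotype's mean at 0 min. In the fit for each replicate number, they were divided by that replicate's own rate at 0 min. For Cxcr4 the control replicates gave 70.5, 60.2 and 50.6 min and the cDKO replicates 548, 454 and 670 min, with fits over all libraries of 59.6 and 541 min, a ratio of 9.08. These fits, and the count model below, take every conversion as label. Whether a base that differs from the reference adds to the cDKO values of Cxcr4 was not tested. The 3712 genes kept for this summary in both genotypes had median half-lives of 224 and 251.1 min and a median ratio of 1.14. The values depended on the fit: a straight line through log rates, which leaves the starting value free and weights the times differently, gave 163 and 901 min, and without the 540 min libraries the cDKO value was 282 min. In the count model of conversions, the slope of log2 rate against time was higher in cDKO than in control cells by 0.31 per h (SE 0.039). The median of this difference over all genes tested was 0.070 per h.

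Ccr2 (chromosome 9, 124106807 to 124109140, plus strand) was lower in cDKO cells at every time. At 0 min it stood at 1050, 1094 and 944 CPM in control and 328, 137 and 703 CPM in cDKO libraries. At 540 min it stood at 1492, 1365 and 1360 CPM in control and 298, 168 and 549 CPM in cDKO libraries. Each of the 4 times showed no overlap of genotypes, although cDKO replicate 3 was far closer to control than replicate 2. The log2 ratio was -1.40 (SE 0.44, edgeR adjusted p = 0.070), -1.41 (0.37, 0.022), -1.62 (0.34, 0.0080) and -2.06 (0.34, 0.0030) at 0, 60, 180 and 540 min. At 60 min the call was lost without any 1 of the 3 control libraries or without cDKO replicate 1 (adjusted p 0.067 to 0.092), and by DESeq2 (0.059). At 0 min Ccr2 passed with no filter (0.023), with the replicate block (0.038), with all 24 libraries in 1 fit (0.042), and without cDKO replicate 2 (log2 ratio -1.001, adjusted p = 0.0090) or replicate 3 (-2.14, 0.00094).

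Ccr1 (chromosome 9, 123962126 to 123963423, minus strand), a receptor of CCL3 on myeloid cells, passed the test at none of the times. Its levels were 49.4, 59.4 and 60.4 CPM in control and 54.1, 35.3 and 78.9 CPM in cDKO libraries at 0 min, and the genotypes overlapped. At 60 and 180 min the cDKO ranges (45.2 to 62.4 and 47.8 to 60.3 CPM) lay above control (38.8 to 43.1 and 42.3 to 46.1 CPM), with log2 ratios of 0.35 and 0.27. At 540 min the cDKO range (49.0 to 51.6 CPM) lay below control (56.3 to 61.5 CPM), with a log2 ratio of -0.25. These did not pass the test (edgeR adjusted p = 0.11, 0.18 and 0.14), although at 60 min Ccr1 passed without cDKO replicate 2 (log2 ratio 0.45, adjusted p = 0.037).

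The other receptors were low. Cxcr2 (chromosome 1, 74159429 to 74161246, plus strand), the receptor of CXCL2 on neutrophils, had 775 reads in all libraries together, of which 8.13% were multimapped, and 2.07 to 13.5 CPM in control and 2.67 to 11.2 CPM in cDKO libraries. Its genotypes overlapped at every time, and its log2 ratios of 0.81, 0.41, -0.38 and -0.18 did not pass the test. Cx3cr1 (chromosome 9, 120048683 to 120051269, minus strand), the fractalkine receptor of monocytes, had 151 reads in all and was too low to test. It reached at most 3.76 CPM in control and 2.63 CPM in cDKO libraries, and 3 cDKO libraries had 0 reads.

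Ccl9 (chromosome 11, 83572917 to 83575383, minus strand) showed the steadiest difference among the ligands. At 0 min its level was 372, 371 and 319 CPM in control and 73.5, 102 and 19.3 CPM in cDKO libraries. At 540 min it was 334, 336 and 287 CPM in control and 59.8, 71.1 and 18.7 CPM in cDKO libraries. No cDKO library reached the lowest control library at any time. By the fitted ratio Ccl9 was 5.33-fold, 5.17-fold, 5.07-fold and 6.43-fold lower in cDKO cells at 0, 60, 180 and 540 min (log2 ratios -2.42, -2.37, -2.34 and -2.69, SE 0.45, 0.32, 0.38 and 0.36, edgeR adjusted p = 0.0077, 0.00067, 0.0019 and 0.0011). The call held under every alternative that was run, including each library left out in turn.

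Ccl6 (chromosome 11, 83587886 to 83588824, minus strand) had 424 reads in all, 340 of them in control libraries. At 0 min it stood at 8.90, 14.5 and 2.88 CPM in control and 3.20, 0.529 and 2.19 CPM in cDKO libraries, and the genotypes overlapped. At 180 min it stood at 2.81, 7.54 and 2.53 CPM in control and 1.02, 0.610 and 0.564 CPM in cDKO libraries, without overlap. The ranges were also lower in cDKO cells at 60 and 540 min. The log2 ratios were -2.16, -1.26, -2.54 and -1.56 (adjusted p = 0.077, 0.11, 0.020 and 0.061), and the call at 180 min was lost without control replicate 2 (0.119). At 0 min Ccl6 passed by DESeq2 (0.015), with no filter (0.044), with all 24 libraries in 1 fit (0.014) and without control replicate 3 (0.0499).

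Ccl3 (chromosome 11, 83647843 to 83648252, minus strand) moved in opposite directions over the chase in the genotypes, as it was chosen to show. In control libraries its level was 31.6, 46.0 and 42.3 CPM at 0 min, and 72.4, 54.8 and 64.6 CPM at 540 min. In cDKO libraries it was 94.5, 25.2 and 215 CPM at 0 min, and 36.7, 7.88 and 87.1 CPM at 540 min. Every control library at 540 min was above every control library at 0 min, whereas the cDKO libraries of both times overlapped. Each replicate number rose in control, to 1.19 to 2.29 times its 0 min level, and each fell in cDKO cells, to 0.312 to 0.406 times. The path in control cells was not smooth, with 133, 109 and 109 CPM at 60 min and 31.9, 27.6 and 25.8 CPM at 180 min. In cDKO cells the means were 111, 101, 54.5 and 43.9 CPM at the 4 times. The genotypes overlapped at every time, and ordered by mean level neighbouring groups overlapped throughout.

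The spread among cDKO replicates was wide and kept its order for Ccl3, Ccl4, Ccr2 and Ccl9. Replicate 3 was highest and replicate 2 lowest for Ccl3, Ccl4 and Ccr2 at all 4 times, while for Ccl9 and Cxcr2 replicate 2 was highest and replicate 3 lowest. The highest replicate's mean over the lowest was 6.55 for Ccl3, 5.10 for Ccl4, 3.94 for Ccr2 and 4.32 for Ccl9 in cDKO cells, against 1.13, 1.17, 1.09 and 1.14 in control cells. For Cx3cr1, with 55 cDKO reads, it was 4.61 in cDKO cells, and the order was not kept. Cxcl2, with 51 cDKO reads, had means of 0.574, 0 and 1.98 CPM in cDKO replicates 1, 2 and 3. The summed neutrophil markers averaged 2954, 2165 and 1890 CPM and the monocyte markers 4370, 4164 and 3593 CPM in cDKO replicates 1, 2 and 3, and their part in this order was not tested.

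**Figure D3:**
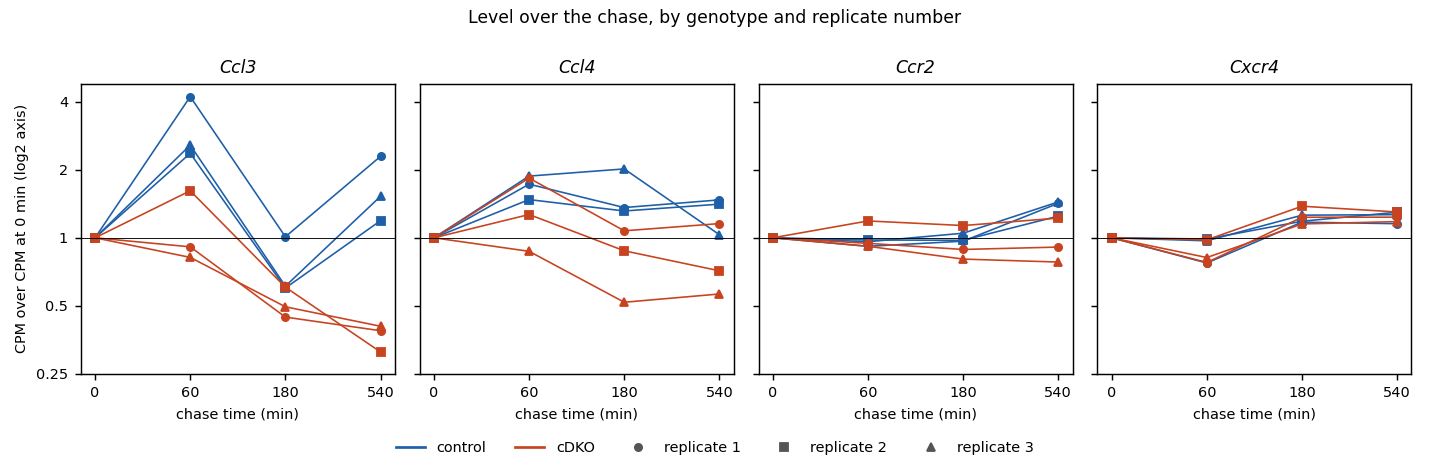
Level of Ccl3, Ccl4, Ccr2 and Cxcr4 relative to 0 min (y axis, log2 scale) over the chase (x axis, equal spacing), with 1 line per replicate number and genotype. Ccl3 ends at 1.19 to 2.29 times its 0 min level in control and at 0.312 to 0.406 times in cDKO cells, while Cxcr4 ends above its start in all 6 lines.

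Ccl4 (chromosome 11, 83664382 to 83664683, plus strand), the neighbour of Ccl3 on chromosome 11, had 1453 reads in all. Its level was 6.78, 8.46 and 7.43 CPM in control and 8.90, 4.41 and 29.4 CPM in cDKO libraries at 0 min, and the genotypes overlapped there and at the other 3 times. Its log2 ratio was 0.91 at 0 min (adjusted p = 0.36) and 1.34 without cDKO replicate 2 (0.038), and at 540 min it was 0.02. Cxcl2 (chromosome 5, 90905205 to 90905938, plus strand) had 74 reads in all and was not tested. It was at 0 in every control library at 180 min, which allows up to 0.193 CPM, and reached 3.07 CPM in cDKO replicate 3 at 0 min.

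**Figure D4:**
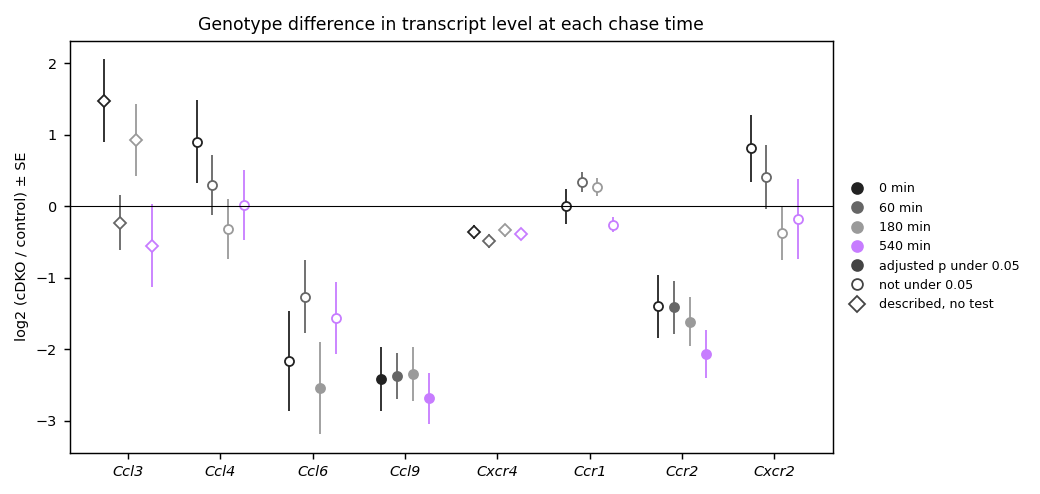
Log2 ratio of cDKO to control (y axis) for the members that were fitted, at each chase time, with bars of 1 SE. Filled points passed an adjusted p of 0.05, open points did not, and diamonds mark Cxcr4 and Ccl3, which were not tested. Ccl9 lies between -2.69 and -2.34 and Cxcr4 between -0.48 and -0.34.

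Apart from Cxcr4 and Ccl3, 6 members were tested between genotypes by edgeR's quasi-likelihood test. At 0 min 1 of the 6 passed (Ccl9), where 13.4% of all genes tested did. At 60 min 2 passed (Ccl9 and Ccr2), against 20.2% of all genes. At 180 min 3 passed (Ccl9, Ccr2 and Ccl6), against 18.9%, and at 540 min 2 passed (Ccl9 and Ccr2), against 19.2%. All of these were lower in cDKO cells. Groups that did not overlap were also common: 2 of 6 members at 0 min and 4 of 6 at the other times, where 33.4%, 38.4%, 37.3% and 37.1% of all genes tested did not overlap at 0, 60, 180 and 540 min.

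Over the chase in control cells Ccr2 rose by a log2 of 0.41 (SE 0.059, adjusted p = 0.00017) and Cxcr4 by 0.27 (0.075, 0.019) from 0 to 540 min. The call for Cxcr4 was lost without control 0 min replicate 2 (adjusted p = 0.070) or replicate 3 (0.074). Ccl6 had a log2 change of -1.34 (edgeR adjusted p = 0.067, but 0.045 by DESeq2, 0.0060 with no filter and 0.013 without control 0 min replicate 3). For Ccl9 the log2 change was -0.19 (edgeR adjusted p = 0.11, but 0.044 without control 540 min replicate 2). Thus 2 of 7 tested members passed, where 16.2% of all genes did. In cDKO cells 0.117% of genes passed (12 of 10235, and 1137 at an unadjusted p under 0.05) and no member did, with Cxcr4 at 0.27 (SE 0.11, adjusted p = 0.41). Replicate numbers pair the cDKO libraries over the times, and with a replicate block 128 genes passed, none of them a tested member, Cxcr4 having an adjusted p of 0.23. The difference between genotypes in this change passed for 0 of 10651 genes (0%; 557 at an unadjusted p under 0.05, and 6 by DESeq2). For Ccr2 that difference was -0.64 (SE 0.63, adjusted p = 0.99), and with the replicate block, where 7 genes passed, -0.54 (adjusted p = 0.26).

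**Figure D5:**
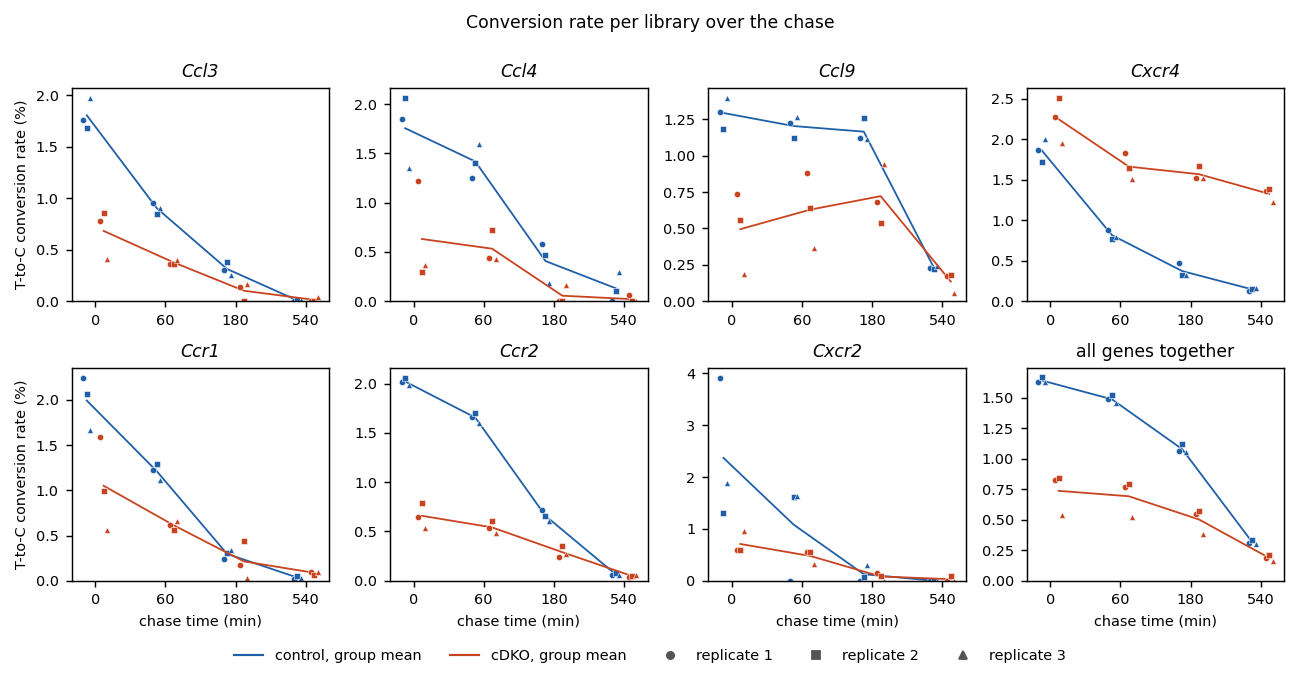
Conversion rate in percent (y axis) against chase time (x axis, equal spacing) for the 7 members with enough coverage and for all genes together, 1 point per library with lines through the group means. At 540 min the cDKO mean of Cxcr4 is 1.33%, while that of Ccr2 is 0.0463% and that of Ccl3 0.0135%.

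The other members that could be fitted lost most of their label in both genotypes. Ccr2 had mean rates of 2.02%, 1.65%, 0.658% and 0.0653% in control and 0.659%, 0.541%, 0.289% and 0.0463% in cDKO cells at 0, 60, 180 and 540 min. The control replicates gave half-lives of 135, 128 and 122 min and the cDKO replicates of 140, 152 and 193 min. These were longer in cDKO cells, in a design of 3 against 3 where the smallest exact two-sided p is 0.1. The ratio of cDKO to control in the fits over all libraries was 1.23, against a median of 1.14 over the 3712 genes kept for that summary in both genotypes. The difference in slope was 0.14 per h in log2 (SE 0.036), against a median of 0.070 over all genes tested. It did not pass in edgeR (adjusted p = 0.076), and it passed with the replicate block (0.0187) and by DESeq2 (0.015). Over all genes 0.13% passed this test (12 of 9207, 59 with the replicate block and 207 by DESeq2), and 0 of the 6 members tested did in the edgeR fit without the block.

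Ccl3 and Ccr1 turned over fast in both genotypes. Mean rates of Ccl3 were 1.81%, 0.902%, 0.313% and 0.00817% in control and 0.682%, 0.376%, 0.102% and 0.0135% in cDKO cells. The fitted half-lives were 64.3 (control) and 68.1 min (cDKO), and replicate values of 55.9 to 70.5 and 44.8 to 175 min overlapped. Ccr1 had half-lives of 74.3 and 79.0 min. In the count model the half-lives were 72.2 and 107 min for Ccl3 and 90.2 and 149 min for Ccr1. The differences in slope were 0.27 per h (SE 0.13) and 0.26 per h (SE 0.099), against 0.31 per h for Cxcr4. They did not pass the test (edgeR adjusted p = 0.28 and 0.18). Their 540 min rates came from 2 conversions in control and 4 in cDKO cells for Ccl3, and from 9 and 16 for Ccr1. Without cDKO replicate 3 the difference of Ccl3 was -0.18. In the exponential fits the ratio of cDKO to control was 1.06 for each of them, against 9.08 for Cxcr4. In cDKO cells the exponential fits rest on 0 min rates that varied between replicates. Among the members Cxcr4 and Ccr2 alone had a relative spread under 0.3 in both genotypes.

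Ccl9 kept its label longest among the ligands that could be fitted. Its rates were 1.29%, 1.203%, 1.16% and 0.230% in control and 0.495%, 0.630%, 0.722% and 0.135% in cDKO cells, so little had been lost by 180 min in control. In cDKO cells the mean rate at 180 min was 146% of that at 0 min, a rise that an exponential fall cannot follow. Fitted half-lives were 342 and 760 min, with cDKO replicate 3 at the upper bound of the fit of 10000 min. The 0 min rate of that replicate, by which its values were divided, was 0.189%, from 3 conversions. With 1 cDKO replicate left out the cDKO value ran from 451 min (without replicate 3) to 1531 min (without replicate 1). The difference in slope did not pass (0.076 per h, adjusted p = 0.53). Ccl4 had half-lives of 112 and 92.6 min (adjusted p for slope 0.65), and the cDKO value ran from 63.7 to 209 min with 1 replicate left out, on either side of control. Cxcr2 had half-lives of 50.5 and 78.1 min, which ran from 33.5 to 113 and 62.3 to 124 min with 1 replicate left out. Its difference in slope was 0.66 per h (SE 0.33, edgeR adjusted p = 0.28). Ccl6 had 75 conversions in 5106 covered T in control and 16 in 1346 in cDKO libraries, too few for a half-life. With the counts of each group summed, its rate in control cells was 1.02%, 1.35%, 2.11% and 1.91% at the 4 times. In cDKO cells it was 0.468% at 0 min and 2.15% at 540 min, the latter from 5 conversions in 233 covered T. Thus the rate of Ccl6 was not lower at 540 min than at 0 min in either genotype, at low coverage. Cxcl2 had 0 conversions in 1846 covered T, which allows a rate of up to 0.163%, and Cx3cr1 had 10 in 2798.

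The wider chemokine family was little expressed. Reads fell on 21 of 32 other ligands and 11 of these reached 1 CPM in some library. Of 19 other receptors 10 had a read and 5 reached 1 CPM. At each time 2 or 3 of these ligands and 1 receptor (Ccrl2) were tested between genotypes, and 0 passed, with adjusted p of 0.10 to 0.93. The ligand Xcl1 had 0 reads in every control library and a mean of 5.43 CPM in cDKO libraries, with 15.2 CPM at most, in 9 libraries with a read.

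Genes acting downstream of the receptors passed the test in both directions, at shares from below to above those of all genes. Of 28 listed signalling genes, among them G proteins, regulators of G-protein signalling and arrestins, 25 were tested. Those that passed numbered 1 higher and 1 lower at 0 min, 2 and 6 at 60 min, 2 and 1 at 180 min, and 2 and 4 at 540 min, which is 2, 8, 3 and 6 of 25 where 13.4%, 20.2%, 18.9% and 19.2% of all genes passed. Their median log2 ratio was 0.12 at 0 min, above that of all genes (0.0056). At 60, 180 and 540 min it was -0.03, -0.0030 and -0.0065, near that of all genes (0.0033, 0.0074 and -0.0013). Rgs18, a regulator of G-protein signalling in blood cells, was at 53.0 ± 6.7 CPM in control and 129 ± 33 in cDKO cells at 0 min (log2 1.29, SE 0.18, adjusted p = 0.0024) and higher at every time. Rgs2, of the same family, was at 80.8 ± 11.4 and 43.5 ± 9.3 CPM (log2 -0.87, SE 0.19, adjusted p = 0.017) and lower at every time, but at 0 min the call was lost without control replicate 1 or 2 or cDKO replicate 1 (0.060 to 0.088). Arrb2, which uncouples and internalises receptors, was higher at 60, 180 and 540 min (adjusted p = 0.0019, 0.0071 and 0.023). The 540 min call was lost with the replicate block (0.055) and without control replicate 1 or 2 or cDKO replicate 1 (0.072 to 0.083), and at 0 min Arrb2 passed by DESeq2 (0.038). Arrb1 passed as lower at 60 and 540 min (0.025 and 0.041). It lost the 60 min call without control replicate 1 or 2 or cDKO replicate 3 (0.051 to 0.099), and the 540 min call by DESeq2 (0.065), with no filter (0.058), with the replicate block (0.058), with all 24 libraries in 1 fit (0.065) and without any library but cDKO replicate 2 (0.077 to 0.141). Rap1a, an adhesion GTPase, passed as lower at 60 and 540 min (0.032 and 0.0090). The 60 min call was lost with the replicate block (0.052) and without control replicate 1 or 2 or cDKO replicate 1 or 2 (0.067 to 0.132), and the 540 min call without control replicate 1 (0.052). At 180 min Rap1a (0.055) passed by DESeq2 (0.042), with no filter (0.047), with the replicate block (0.041) and without multimapped reads (0.023). Vav1, an exchange factor, was at a log2 ratio of -0.31 at 540 min (adjusted p = 0.045), a call lost by DESeq2 (0.083), with no filter (0.081), with the replicate block (0.090) and without any 1 of the 6 libraries (0.060 to 0.141).

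Of 10 factors that bind AU-rich elements or, like Rc3h1 and Zc3h12a, stem-loops of the 3′UTR, all tested, 1 was higher at 0 min, 2 were higher at 60 min, 1 was lower at 180 min and 2 were lower at 540 min, shares at or below those of all genes at 0, 60 and 180 min (13.4%, 20.2% and 18.9%) and close to that at 540 min (19.2%). Khsrp, a decay factor, was at 349 ± 24 CPM in control and 446 ± 26 in cDKO cells at 0 min (log2 0.37, adjusted p = 0.033), a call lost with the replicate block (0.081) and without any control library or cDKO replicate 1 (0.091 to 0.171). Tia1, a translation repressor, was lower at 180 and 540 min (adjusted p = 0.032 and 0.011). Its 180 min call was lost with the replicate block (0.058) and without any control library or cDKO replicate 1 (0.052 to 0.121), and its 540 min call without control replicate 1 or 2 (0.050 and 0.051). Rc3h1, which promotes mRNA decay, was lower at 540 min (log2 -0.43, adjusted p = 0.025), a call lost without any 1 control library (0.064 to 0.104). The median log2 ratio of the 10 was 0.0013 at 0 min and -0.03 at 540 min.

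Genes whose level across the 24 libraries ran most like that of a member, among 8321 genes with a mean of at least 10 CPM, were found by Pearson's r of log2(CPM + 1), as a description. The closest to Cxcr4 were Cflar (r = 0.94), Sbno2 (0.90) and Pde1b (0.89), and within genotypes these were 0.75 to 0.86 in control and 0.78 to 0.96 in cDKO cells. The closest to Ccl3 were Fam122a (0.84), Ccl4 (0.81) and Slc35e4 (0.80), and within genotypes their r ran from 0.29 to 0.67 (control) and from 0.91 to 0.94 (cDKO). The points share batches, replicate numbers and depth.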

How the data were processed

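SLAM-seq libraries (QuantSeq 3′-end kit, after alkylation of RNA) were made from 24 samples, and the authors processed the reads with SlamDunk 0.4.3 against 3′UTR intervals of mm10 (GRCm38); alignment, filter and variant-masking settings are not given in the sources used here. The authors deposited a table per library that lists, by interval, counts of reads, converted reads, covered T and conversions, with a CPM and a conversion rate as a fraction. The deposited counts were used, and CPM and rates were recomputed from summed counts. Intervals repeated in a table were counted once (29021 were kept) and summed by gene symbol. Each library held 4380235 to 7041311 reads in intervals, of 9552906 to 13882269 filtered reads. Intervals and limits cover counting error only, since PCR copies were not told apart.

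The members and gene lists were chosen with earlier results of these data known. Genes named beyond the members were those of the fixed lists that passed the test at 0 or 540 min (at most 8 per list, 3 per marker list), and the 3 genes most like Cxcr4 and Ccl3. Abundance was tested with edgeR 4.0.16 (R 4.3.3; filterByExpr, TMM, quasi-likelihood, Benjamini-Hochberg over all genes tested, threshold 0.05), between genotypes within each time and between 540 and 0 min. The decay test modelled conversions with covered T as the offset and genotype, time and their product as terms (genes with 50 or more conversions in all and, per library, 100 or more covered T). The fits were tested on simulated data.

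Replicate numbers were checked for pairing: same-numbered cDKO libraries deviated together over the times (correlations 0.263 to 0.776), control libraries did not in every case (-0.032 to 0.151), and the numbers did not pair the genotypes (-0.075 to 0.10). No 2 libraries were duplicates (chi-square over degrees of freedom 3.35 to 27.8 within groups). DESeq2 1.42.0, a replicate block, no filter, other intervals, multimapped reads removed, other half-life models and each library left out were the alternatives. UTR sequences came from GENCODE vM39.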

Additional observations from a re-analysis of the deposited data

Results flagged for a closer look

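Ccl3 was set apart because its change in abundance from 0 to 540 min ran one way in every control replicate and the other way in every cDKO replicate. The change was positive in all 3 control replicates and negative in all 3 cDKO replicates, and the cDKO mean change minus the control mean change was -91.5 CPM. The difference was not tested, since Ccl3 was chosen for this change, and each time was also a batch of its own.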

How the results depend on the processing

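The number of genes passing between genotypes at 0 min was 1360, and became 2292 with all 24 libraries in 1 fit, 3433 with counts summed over the 4 times (chosen after seeing the data) and 633 to 2223 with 1 library left out. With 1 library left out the counts ranged from 1296 to 2331 at 60 min, 1155 to 2161 at 180 min, 1182 to 2070 at 540 min, 1007 to 1722 for the chase in control, 0 to 5 for the chase in cDKO, 0 to 1 for the genotype difference in chase change and 3 to 30 for the decay test. For the chase in cDKO cells DESeq2 passed 123 and the replicate block 128; for the genotype difference 6 and 7; for the decay test 207 and 59, with 23 when the library-wide rate entered the offset and 1 without the 540 min libraries. For Cxcr4 the log-linear fit gave half-lives of 163 (control) and 901 min (cDKO), the cDKO value was 282 min without 540 min, and with 1 replicate left out the values were 54.9 to 65.3 and 497 to 601 min. Calls of Ccl9 held throughout, and Ccr2 at 0 min passed with the replicate block (adjusted p = 0.038).

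Differences that had not passed changed sign in some settings. Ccr1 at 0 min was 0.0022 by DESeq2, 0.0002 with the interval of most reads, 0.0006 without multimapped reads and 0.049 with summed counts, and Vav1 at 0 min was -0.13 with summed counts. Ccl4 at 540 min was -0.15 with the replicate block and -0.0075 without multimapped reads. The genotype difference in chase change of Cxcr4 was -0.0111, -0.008, -0.0088 and -0.0134 by DESeq2, with the replicate block, with the interval of most reads and without multimapped reads. With 1 library left out, the log2 values that crossed 0 ranged as follows: between genotypes, Ccl4 -0.19 to 1.34 (0 min), -0.24 to 0.71 (60 min), -0.83 to 0.057 (180 min) and -0.56 to 0.46 (540 min), Ccr1 -0.33 to 0.24 and Vav1 -0.0019 to 0.22 (0 min), Cxcr2 -0.077 to 0.76 (60 min) and -0.99 to 0.21 (540 min), and Rc3h1 -0.17 to 0.021 (180 min). Over the chase they were -0.0295 to 0.094 for Ccr1 in control, and in cDKO cells -1.10 to 0.56 for Ccl4, -0.87 to 0.084 for Ccl9, -0.43 to 0.12 for Ccr1, -0.76 to 0.50 for Ccr2 and -1.13 to 0.20 for Cxcr2. The genotype difference in chase change ran from -1.44 to 0.21 for Ccl4, -0.68 to 0.27 for Ccl9, -0.064 to 0.061 for Cxcr4, -0.48 to 0.087 for Ccr1 and -1.17 to 0.091 for Ccr2, and the decay difference of Ccl3 from -0.18 to 0.35. The causes were not tested.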
